A study of Mus musculus with 22 samples.

Results

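The B cell receptor signalling core described here is a set of 8 genes: Cd79a, Cd79b, Lyn, Syk, Blnk, Btk, Plcg2 and Pik3ap1. They were found by gene symbol in 3 tables of normalized counts that list 21880, 26097 and 25676 genes. Each of the 8 symbols was listed once in every table, and all 8 passed the minimum mean of 10 that was set for testing, among 11701, 13364 and 12386 tested genes. A normalized count is the number of reads of a gene after the authors' scaling of each library.

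The B cell receptor is a membrane immunoglobulin held in a complex with the chains Cd79a and Cd79b (CD79A and CD79B), whose tails carry tyrosine motifs that are phosphorylated when antigen binds. The Src family kinase Lyn phosphorylates these motifs and Syk, the kinase that binds them, then phosphorylates the adaptor Blnk (also called SLP-65). Blnk brings the Tec family kinase Btk to phospholipase C gamma 2, the product of Plcg2, which releases inositol trisphosphate and diacylglycerol and so opens the calcium and RAS branches. Pik3ap1 encodes BCAP, an adaptor that joins the receptor to phosphoinositide 3-kinase. In immature B cells of the spleen the strength of this signal takes part in tolerance, survival and entry into the mature pool.

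RNA was measured in 22 libraries of splenic immature B cells of mice, sorted as B220+CD93+, in 7 groups. In a first experiment, Tcrd-GDL mice were left untreated (3 libraries) or were depleted of gamma delta T cells with diphtheria toxin (3 libraries), which was injected 2 times, 48 h apart, at 15 ng for each g of weight. Cells were taken on day 8, counted from the first injection. A second experiment had 5 untreated and 2 depleted libraries of the same strain, and 3 libraries from Tcrd-H2BeGFP mice that received the same toxin course, here called the toxin control. Tcrd-GDL is a strain whose T cell receptor delta locus carries a reporter with a toxin receptor, and Tcrd-H2BeGFP is a strain whose gamma delta T cells carry a fluorescent histone. The labels state no toxin receptor for the latter. In the culture experiment, the B cells came from Tcrd-H2BeGFP mice without treatment and were grown either alone (3 libraries) or together with gamma delta T cells (3 libraries). The comparisons ask how the genes of these B cells differ when gamma delta T cells are removed or added. The labels give no age of the mice and do not say whether libraries came from separate mice or cultures, so p-values measure only the spread between libraries, which may be technical.

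Library sizes were 9794413 to 20343954 reads (experiment 1), 22022330 to 36840455 (experiment 2) and 17505909 to 28729574 (culture), and the 8 genes took 0.1961% to 0.431% of the reads of a library. The B cell markers Ms4a1 (the CD20 gene) and Cd93 (the gene of the sorted CD93 antigen) were present in every group, with group means of 11421 to 52459 and 689 to 2082 normalized counts. The 3 measured gamma delta T cell markers were at or near 0, with a summed level of at most 14.6 in any library and Tcrg-C1 at 0 throughout 6 of the 7 groups, so these libraries do not check the depletion itself. Depleted replicate 1 of experiment 1 stood apart, with 28.7% of its reads in the gene entry Gm23935. The share was 16.1% to 20.4% in the other 5 libraries of that table.

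On the GRCm38 assembly with GENCODE M21, all 8 members are protein coding genes. The receptor chains are short genes: Cd79a (ENSMUSG00000003379) lies at chr7:24897381-24902197 on the plus strand and Cd79b (ENSMUSG00000040592) at chr11:106311341-106314762 on the minus strand. The 3 kinases are Lyn (ENSMUSG00000042228) at chr4:3678115-3813122 on the plus strand, Syk (ENSMUSG00000021457) at chr13:52583173-52648792 on the plus strand and Btk (ENSMUSG00000031264) at chrX:134542336-134583570 on the minus strand. The 2 adaptors share chromosome 19 and the minus strand, with Blnk (ENSMUSG00000061132) at chr19:40928927-40994535 and Pik3ap1 (ENSMUSG00000025017) at chr19:41272377-41385102. The phospholipase gene Plcg2 (ENSMUSG00000034330) lies at chr8:117498291-117635142 on the plus strand. The exons of Lyn share 248 bases (6.09% of its exon length) with Gm26857, a long noncoding RNA gene on the other strand. Reads there cannot be told apart unless the counting used strand, which is not given in the sources used here. No other member shares exon bases with another gene.

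Plcg2 and Pik3ap1 were the members with adjusted p under 0.05 in a comparison below, so the stretch before their start is shown, with that of Btk as a member that was not called. Of the 8 members, 6 have an entry in the RefSeq promoter table (GRCm38.p6), with 7 windows, and the entries cover neither Cd79b nor Lyn. Each sequence is the 250 bases before the RefSeq start, written 5′ to 3′ on the gene's strand, and no base of the 3 lies in a GENCODE exon. The Plcg2 window is chr8:117498025-117498274 (plus strand), the Pik3ap1 window is chr19:41385103-41385352 (minus strand) and the Btk window is chrX:134583141-134583390 (minus strand, inside the GENCODE gene). Capitals mark the letters GGAA or TTCC, the core of the motif of ETS family factors on either strand.
Plcg2: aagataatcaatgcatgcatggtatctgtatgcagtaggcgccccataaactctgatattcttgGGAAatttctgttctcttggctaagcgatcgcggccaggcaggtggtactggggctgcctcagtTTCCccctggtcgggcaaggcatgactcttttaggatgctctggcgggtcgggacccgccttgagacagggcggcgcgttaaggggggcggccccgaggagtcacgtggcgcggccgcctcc
Pik3ap1: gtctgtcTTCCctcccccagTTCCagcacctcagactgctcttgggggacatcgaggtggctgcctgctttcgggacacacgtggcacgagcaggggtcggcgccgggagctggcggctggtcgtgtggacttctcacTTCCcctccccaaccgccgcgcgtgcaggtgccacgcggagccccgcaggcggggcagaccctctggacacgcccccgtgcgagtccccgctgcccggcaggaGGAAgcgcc
Btk: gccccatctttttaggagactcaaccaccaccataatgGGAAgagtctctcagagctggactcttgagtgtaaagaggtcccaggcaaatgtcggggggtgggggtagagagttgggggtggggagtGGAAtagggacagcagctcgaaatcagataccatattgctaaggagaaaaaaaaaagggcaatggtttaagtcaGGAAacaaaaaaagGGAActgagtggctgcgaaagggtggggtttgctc
The core occurs 2 times in the Plcg2 window and 4 times in each of the Pik3ap1 and Btk windows. It is a short motif, found in 93.4% of 32851 promoter windows of this length, with a median of 3 matches. The share of G and C was 59.6% in Plcg2, 71.2% in Pik3ap1 and 49.6% in Btk. Searched on both strands, the octamer ATGCAAAT, the CCAAT box and the TATA box TATAAA had no match in these 3 windows. They are held by 1.6%, 33.8% and 12.4% of all windows. The GC box GGGCGG (32.7% of all windows) had 2 matches in Plcg2 and none in the other 2. No capital base lies in a match of another of these motifs. A match describes letters and is not a bound site.

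Levels were compared between the members per kb of exon, because the exon lengths run from 1431 bases (Cd79b) to 9362 bases (Syk). The receptor chains stood far above the enzymes and adaptors in every table. Untreated cells of experiment 1 had 6319 ± 209 (SD, n = 3) normalized counts per kb for Cd79a and 6143 ± 441 for Cd79b, levels that overlapped. Lyn followed at 1126 ± 27.1, and then Plcg2 at 757 ± 47.7 and Syk at 739 ± 48.1, which overlapped as well. Pik3ap1 (403 ± 22.6) and Btk (374 ± 19.9) overlapped, and Blnk was lowest at 280 ± 9.61. By mean level per kb over all libraries of a table, Cd79a and Cd79b ranked 51 and 56 of 11618 genes in experiment 1, 59 and 47 of 13261 in experiment 2, and 90 and 66 of 12295 in culture. Blnk ranked 1150 in experiment 1 and 1463 in culture.

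The order of the enzymes was alike in the untreated cells of experiment 2, with Lyn at 2551 ± 147 (SD, n = 5) normalized counts per kb, Plcg2 at 1517 ± 91.4 and Syk at 1380 ± 95.7, the last 2 again overlapping. Btk (782 ± 60.5) and Pik3ap1 (723 ± 34.0) overlapped there, and Blnk was lowest at 637 ± 33.3, its highest library just overlapping the lowest of Pik3ap1. Cells cultured alone had another order at the lower end, and every library had more Cd79b (9612 ± 217 per kb, SD, n = 3) than any had Cd79a (8169 ± 920). There Btk stood at 558 ± 58.7 (SD, n = 3) and Syk at 494 ± 45.2, which overlapped, Blnk followed at 363 ± 27.9, and Pik3ap1 was lowest at 278 ± 26.1, below every library of Blnk. The tables were normalized separately, so only the order within a table, not the height, was set across them.

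**Figure D1:**
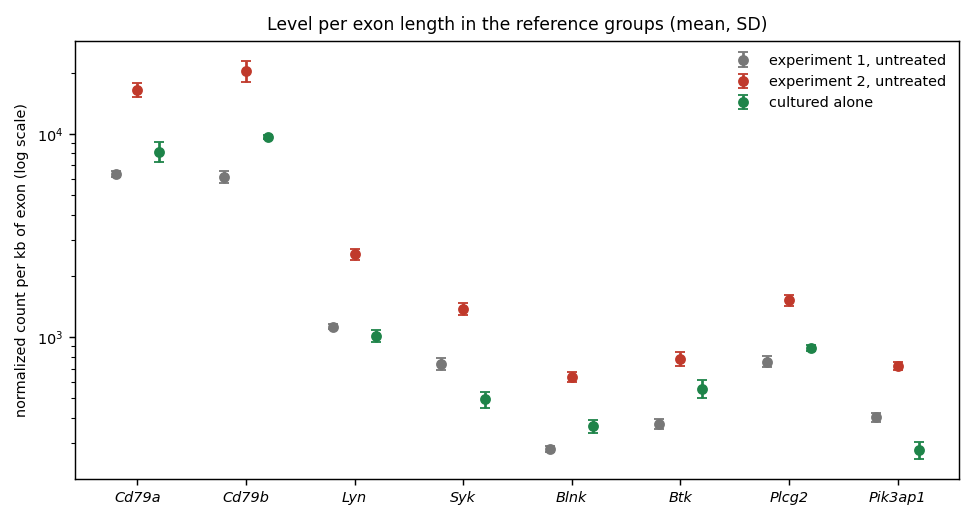
Level of each member in the reference group of each table, as normalized count per kb of exon on a log axis; points are means and whiskers are SD over 3 (experiment 1), 5 (experiment 2) and 3 (culture) libraries. Cd79a and Cd79b have means of 6143 to 20434 while the other 6 members lie between 278 and 2551, and Pik3ap1 is the lowest member only in culture; heights of different colours come from separately normalized tables.

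The kinases and adaptors have counterparts below the T cell receptor, and these were at much lower levels per kb. In untreated cells of experiment 1, Syk was 115 to 259 times as high as Zap70 (the T cell kinase of the same family) across the 3 libraries. Blnk was 53.2 to 96.4 times as high as Lcp2 (SLP-76). The gap was smaller for Plcg2 over Plcg1 (22.7 to 27.6 times) and for Lyn over Lck (14.8 to 14.9 times). In culture the Lyn to Lck ratio was 8.94 to 10.2 in cells kept alone and 4.29 to 6.61 in cells kept with gamma delta T cells, with no overlap.

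**Figure D2:**
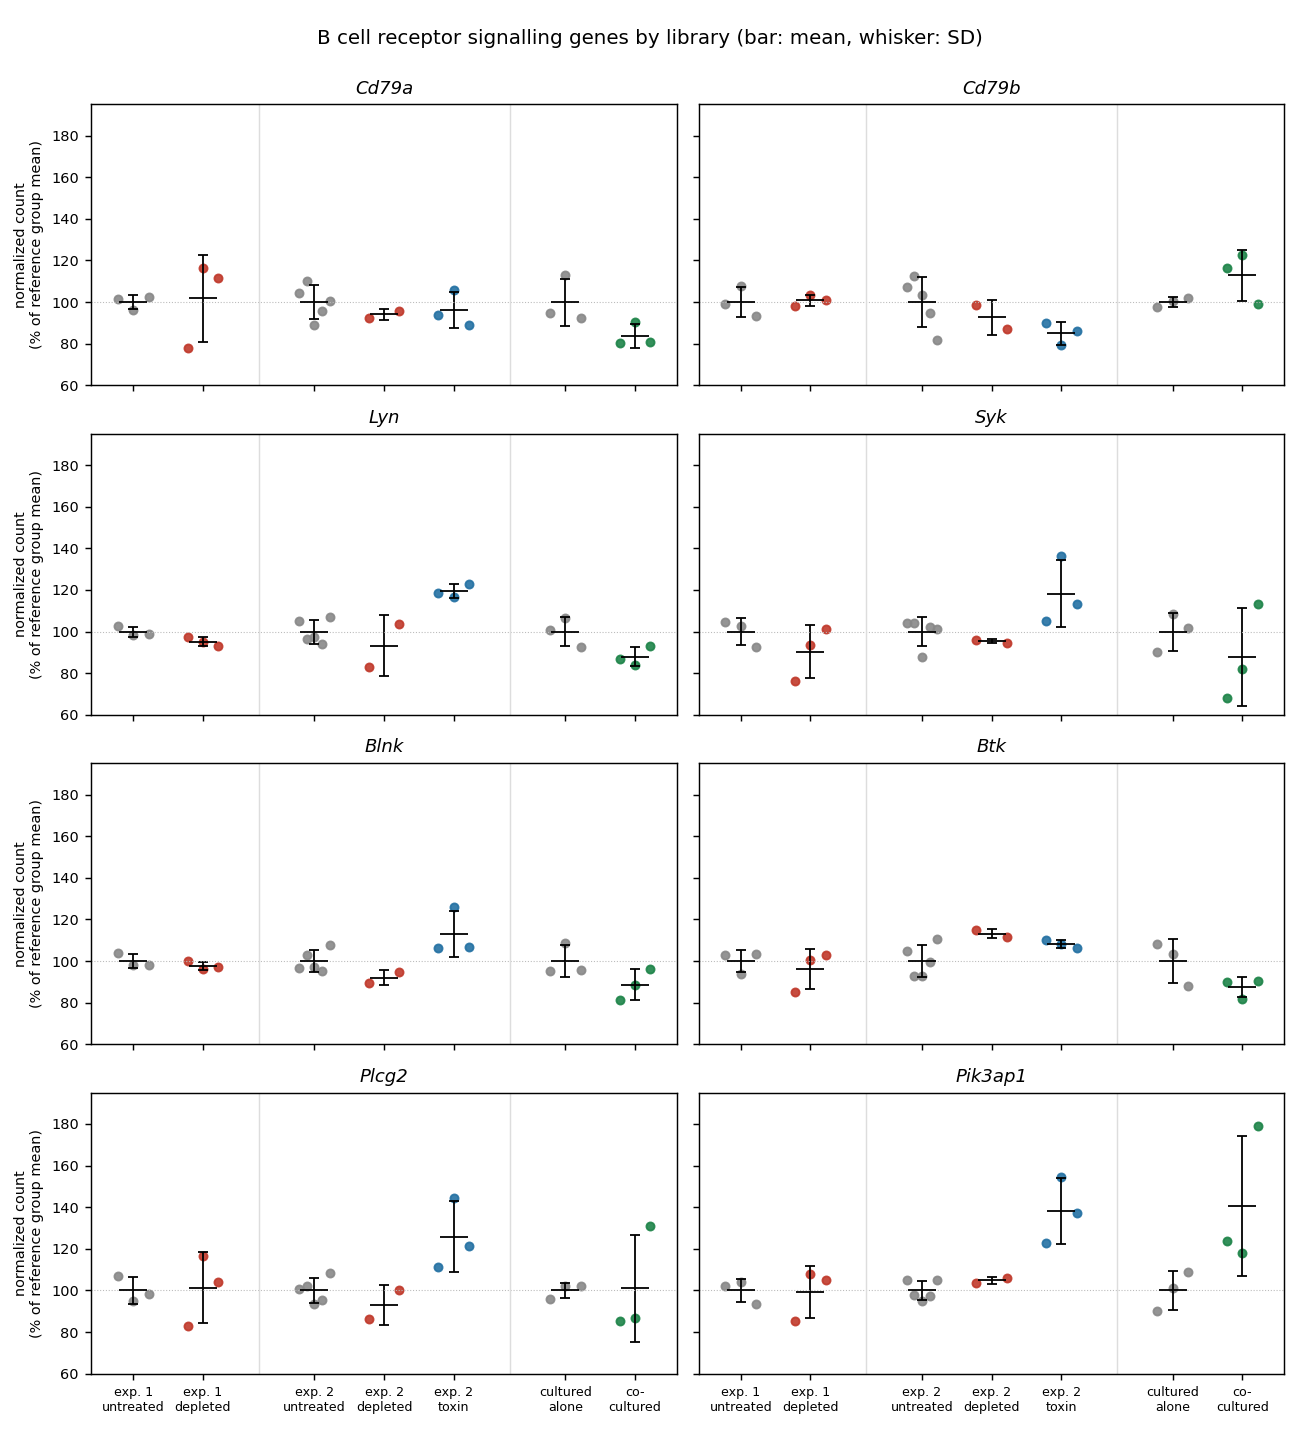
Normalized count of each member in each of the 22 libraries, as a percentage of the mean of the reference group of its table (untreated, untreated and cultured alone); points are libraries, bars are means and whiskers are SD, and "exp. 2 toxin" is the toxin control. The 3 toxin control libraries lie at 123% to 154% for Pik3ap1 and 111% to 145% for Plcg2, and co-cultured replicate 3 reaches 179% for Pik3ap1.

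In experiment 1, no member was called different between depleted and untreated cells. The log2 fold changes ran from -0.15 for Syk to 0.01 for Cd79b, with a median of -0.03 over the 8 members against -0.01 over all tested genes. Limma's adjusted p was under 0.05 for 0 of 8 members and for 0% of the 11701 tested genes. At an unadjusted p under 0.05 it was 0 of 8 members, against 8.83% of tested genes, and edgeR and DESeq2 on recovered reads called 0 members as well. The widest member interval was that of Cd79a, whose log2 fold change of 0.01 had a 95% interval of -0.32 to 0.34.

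Lyn, which starts the cascade, had 4713, 4506 and 4542 normalized counts in the untreated libraries and 4461, 4360 and 4277 in the depleted ones. It was the only member with no overlap between the groups of experiment 1, a property of 15.2% of tested genes in either direction. Its log2 fold change was -0.07 ± 0.08 (SE; limma, adjusted p = 0.82).

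Cd79a showed how 1 library shaped this comparison. It had 9352, 8856 and 9411 normalized counts in the untreated libraries, and 7179, 10704 and 10266 in depleted replicates 1, 2 and 3. Replicate 1 lay below, and the other two above, every untreated library. The same depleted replicate 1 was lowest of the 6 libraries for 5 of the 8 members (Cd79a, Syk, Btk, Plcg2 and Pik3ap1). It is the library with the highest share of Gm23935 reads and the fewest reads (9794413). Its total of normalized counts was 14979694, against 11759195 to 12299785 in the other libraries of experiment 1. With Gm23935 left out, the 8 members made up 0.3076% of its reads, against 0.3844% to 0.3986% in the others. The part of these features in the result was not tested.

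Without depleted replicate 1, Cd79a had a log2 fold change of 0.19 ± 0.08 (SE; limma, adjusted p = 0.14), Plcg2 one of 0.14 ± 0.08 (adjusted p = 0.30) and Pik3ap1 one of 0.09 ± 0.08 (adjusted p = 0.51). The number of members called stayed at 0, while the number of genes called over the table went from 0 to 1097. Cd79b was steady across all 6 libraries, from 8199 to 9453 normalized counts. Blnk ranged from 1613 to 1746. Among the other genes of the pathway, limma called 0 in each of the 9 lists tested, such as 0 of 16 in the PI3 kinase and AKT branch and 0 of 18 tested inhibitory receptors and phosphatases.

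In experiment 2, no member was called different between depleted and untreated cells either. Btk was higher and Blnk lower in both depleted libraries than in any untreated one, without passing the test. The member median was a log2 fold change of -0.09, against -0.0024 over all tested genes. Limma's adjusted p was under 0.05 for 0 of 8 members and for 0.299% of the 13364 tested genes, 17 of 40 of them higher. At an unadjusted p under 0.05 it was 0 of 8 members and 9.79% of tested genes, and edgeR and DESeq2 also called 0 members. Over all genes edgeR called 51, of which 36 were higher, so the split between higher and lower calls depended on the tool.

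Btk had 2580, 2279, 2280, 2453 and 2716 normalized counts in untreated replicates 4 to 8, and 2824 and 2746 in depleted replicates 4 and 5. Both depleted libraries lay above every untreated one. Its log2 fold change was 0.18 ± 0.09 (SE; limma, adjusted p = 0.54, 95% interval -0.01 to 0.37).

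Blnk, the adaptor that Btk works with, had 3694, 3922, 3712, 3635 and 4115 in untreated replicates 4 to 8, and 3409 and 3605 in the depleted libraries. Both depleted libraries lay below every untreated one, the second by a narrow margin. The difference was, on the log2 scale, -0.12 ± 0.09 (SE; limma, adjusted p = 0.74). These 2 members of 8 without overlap compare with 12.3% of tested genes in either direction.

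The 2 depleted libraries differed from each other for Lyn, with 8602 in replicate 4 and 10760 in replicate 5, against 9781 to 11123 in untreated libraries. Depleted replicate 4 was the lowest library of experiment 2 for Blnk, Lyn and Plcg2 and the highest for Btk. Its erythroid marker sum was 4359, against 318 in depleted replicate 5 and 851.5 to 2400 in untreated libraries. Its immature B cell marker sum was 195222, against 229932 and 224692 to 268245. The part of these sums in the values was not tested. Without depleted replicate 4, the log2 fold change of Lyn turned from -0.11 to 0.05 and that of Plcg2 from -0.10 to 0.0019, with the remaining depleted library assumed to vary like the other groups. Pik3ap1 had 4177 and 4272 in depleted libraries and 3822 to 4233 in untreated ones, which overlapped. Cd79a and Cd79b overlapped too, with log2 fold changes of -0.08 and -0.10. Of the other pathway lists, the antigen receptor chains had 1 of 4 tested genes higher, Ighd, the delta heavy chain constant region (18384 ± 4356, SD, n = 2, against 10637 ± 1157, n = 5, log2 fold change 0.78, limma adjusted p = 0.021). The inhibitory receptors and phosphatases had 1 of 19 higher, the phosphatase gene Ptpn22 (log2 fold change 1.17 ± 0.19, SE, limma adjusted p = 0.021), and none of the other 7 lists had a called gene. Both calls were lost without depleted replicate 4 (limma adjusted p = 0.59 for Ighd and 0.39 for Ptpn22), without untreated replicate 4 (0.070 and 0.063) and with only the 2 groups in the fit (0.070 for both). That of Ighd was also lost without untreated replicate 5 (0.054) or 7 (0.0502). No tested marker of another cell type was called in this comparison.

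Plcg2 and Pik3ap1 were lower in depleted cells than in the toxin control. Plcg2 was at 6071 ± 631 (SD, n = 2) against 8197 ± 1111 (n = 3) and Pik3ap1 at 4225 ± 66.8 against 5562 ± 632. Untreated cells of the depleted strain had 6518 ± 393 (SD, n = 5) for Plcg2 and 4026 ± 189 for Pik3ap1. Against those, depleted cells were not called different (limma adjusted p = 0.83 and 0.88). In depleted cells Lyn, Blnk and Syk were also below every toxin control library but did not pass the threshold. The log2 fold change was -0.03 for Cd79a (95% interval -0.29 to 0.24), 0.12 for Cd79b (-0.18 to 0.42) and 0.07 for Btk (-0.15 to 0.28). Limma called 2 of 8 members lower, where 4.49% of tested genes were called lower and 9.07% in either direction. The median over the 8 members was -0.30, and -0.0019 over all tested genes.

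Plcg2 had 5625 and 6517 normalized counts in the depleted libraries and 7259, 9423 and 7908 in toxin control replicates 1 to 3. The groups did not overlap, and toxin control replicate 2 was far above the other two. Its log2 fold change was -0.43 ± 0.12 (SE; limma, adjusted p = 0.036, 95% interval -0.68 to -0.18), a ratio of 0.743.

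Pik3ap1 had 4177 and 4272 in the depleted libraries and 4951, 6212 and 5523 in the toxin control. All 3 toxin control libraries were above both depleted ones, which lay close together. Limma's log2 fold change was -0.39 ± 0.10 (SE; limma, adjusted p = 0.032, 95% interval -0.61 to -0.17), a ratio of 0.763.

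Lyn had 12325, 12112 and 12775 in the toxin control against 8602 and 10760 in depleted cells, with a log2 fold change of -0.37 ± 0.11 (SE; limma, adjusted p = 0.051). Syk had 13587, 17580 and 14637 against 12419 and 12227 (log2 fold change -0.30 ± 0.12, adjusted p = 0.13). Blnk had 4059, 4797 and 4080 against 3409 and 3605 (log2 fold change -0.29 ± 0.10, adjusted p = 0.079). In these 3 members every depleted library was below every toxin control library. With Plcg2 and Pik3ap1 lower and Btk higher, 6 of the 8 members had no overlap, where 42.1% of all tested genes had none. In the lower direction it was 5 members and 20.9% of tested genes.

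The calls of Plcg2 and Pik3ap1 did not hold under every setting. Both were lost with no filter on low values (limma adjusted p = 0.064 and 0.059), with only the 2 groups in the fit (0.099 and 0.095), without depleted replicate 4 (0.41 and 0.32), without toxin control replicate 2 (0.13 and 0.12) and without toxin control replicate 3 (0.072 and 0.078). Both kept a negative sign in all of these. Under quantile normalization Syk and Lyn were called as well, and Cd79b changed from 0.12 to -0.28 on the log2 scale.

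Strain and the loss of gamma delta T cells differ together in this comparison and cannot be told apart. Other markers moved with it. The sorted antigen's gene Cd93 was at 1141 ± 65.7 (SD, n = 2) in depleted cells and 2082 ± 286 (n = 3) in the toxin control (log2 fold change -0.86, limma adjusted p = 0.0060), a call lost without depleted replicate 4 (adjusted p = 0.13). The summed level of the 8 T cell markers was 292 to 499 in depleted cells and 848 to 1497 in the toxin control, and limma called 3 of the 8 lower. The 7 myeloid markers summed to 454 to 759 against 1021 to 1526, with 2 of 6 tested called lower, and the myeloid gene Lyz2 was at 192 ± 69.9 against 662 ± 176. The 5 NK cell markers summed to 87.7 to 185 against 273 to 405, with 1 of 5 called lower (Nkg7). The 5 dendritic cell markers went the other way, at 448 to 683 against 285 to 369, with 0 of 5 called, and among them Siglech was at 194.8 ± 112 against 52.2 ± 9.63. The 4 plasma cell markers summed to 3791 to 3800 against 3881 to 11587 with 0 of 4 called, and the erythroid sums overlapped. The 9 immature B cell markers, which include Cd79a and Cd79b, summed to 195222 to 229932 against 259310 to 266621, with Cd93, Ptprc and Cd24a called lower. The part of any of these cells in the values of the members was not tested. Myeloid cells also express some of the members, such as Lyn, Syk and Plcg2. In bulk samples fewer cells of a type and less RNA per cell cannot be told apart.

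The list counts that follow stand beside 4.49% of all tested genes called lower and 9.07% called in either direction. Around the members, the PI3 kinase and AKT branch had 4 of 16 genes lower and none higher, led by Pik3r5 (log2 fold change -0.58), Pik3cg (-0.54) and Pik3r2 (-0.61), which encode subunits of phosphoinositide 3-kinase. The calcium and NFAT branch had 2 of 16 lower, the inositol trisphosphate receptor genes Itpr1 (-0.48, limma adjusted p = 0.020) and Itpr2 (-0.54, adjusted p = 0.030). The diacylglycerol, RAS and NF-kappaB branch had 2 of 19 lower, the RAS exchange factor genes Rasgrp1 (-0.68) and Rasgrp3 (-0.47). Of the inhibitory receptors and phosphatases, a list that is not limited to inhibitors, 5 of 19 were lower and 1 higher. Among them were the phosphatase genes Ptprj (-0.90) and Ptpn22 (1.11) and the surface receptor gene Cd5 (-1.88). The coreceptor gene Cd81 (-0.72) and the exchange factor gene Vav2 (-0.39) were lower, while Ighd was higher (0.77). Of the 10 T cell receptor counterparts, 2 were called lower, among them Lat, beside the T cell marker sums given above. Each gene called here had a limma adjusted p under 0.05, and the bracketed values are log2 fold changes. Of the 20 pathway genes called in this comparison, 0 were still called without depleted replicate 4, 4 without toxin control replicate 2 (Cd81, Ighd, Ptpn22 and Ptprj), 7 without toxin control replicate 3 and 8 with only the 2 groups in the fit.

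The toxin control was then compared with untreated cells, which sets toxin-treated mice of the other strain beside untreated Tcrd-GDL mice. Pik3ap1 and Plcg2 were higher in the toxin control. Pik3ap1 was at 5562 ± 632 (SD, n = 3) against 4026 ± 189 (n = 5) and Plcg2 at 8197 ± 1111 against 6518 ± 393. Limma called 2 of 8 members higher, where 7.32% of tested genes were called higher and 15.7% in either direction. The median log2 fold change was 0.20 over the members and 0.0008 over all tested genes. The 3 toxin control libraries are the same as in the comparison before, so the values are not independent of it, and strain and toxin differ together here and cannot be told apart.

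Pik3ap1 had 4224, 3936, 3822, 3918 and 4233 normalized counts in untreated replicates 4 to 8, and 4951, 6212 and 5523 in the toxin control. The groups did not overlap. The log2 fold change was 0.46 ± 0.08 (SE; limma, adjusted p = 0.0047, 95% interval 0.28 to 0.64), a ratio of 1.38, and adjusted p was at most 0.046 with any single library left out.

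Plcg2 had 6572, 6649, 6086, 6205 and 7078 in untreated libraries and 7259, 9423 and 7908 in the toxin control. The lowest toxin control library was just above the highest untreated one. Its log2 fold change was 0.32 ± 0.09 (SE; limma, adjusted p = 0.031). The call was lost with no filter on low values (adjusted p = 0.057), without toxin control replicate 2 (0.19) or 3 (0.078), and without untreated replicate 4 (0.055), 5 (0.055), 6 (0.078) or 7 (0.071).

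Lyn (log2 fold change 0.26 ± 0.09, SE, limma adjusted p = 0.061) and Syk (0.24 ± 0.10, adjusted p = 0.11) were above all untreated libraries in all 3 toxin control libraries without passing the test. Together 4 of 8 members had no overlap, all of them higher, against 11.6% of tested genes in that direction and 23.4% in either. Cd79b went the other way, at 24888 ± 1621 (SD, n = 3) against 29241 ± 3515 (n = 5), a log2 fold change of -0.23 that became 0.09 under quantile normalization. Its untreated libraries ranged from 23917 in replicate 8 to 32904 in replicate 5. Without untreated replicate 8, Cd79b was called lower (-0.30, limma adjusted p = 0.047) and Lyn higher (0.28, adjusted p = 0.035). Blnk (0.17) and Btk (0.12) were not called.

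As a share of all reads, which does not use the authors' scaling, the 8 members made up 0.3655% to 0.431% in the toxin control, 0.2564% to 0.3304% in untreated and 0.2505% to 0.3015% in depleted libraries. The toxin control lay above all other libraries of experiment 2 on this measure, which was chosen after the values were seen. Its libraries also had the lowest totals of normalized counts, 23511359 to 25671361. Totals were 27385833 to 34715330 in untreated and 29365728 to 35161443 in depleted libraries. A gene with an equal normalized count therefore has a higher share in the toxin control, so the share alone does not show a difference of the members. Cd93 was higher in the toxin control here too (log2 fold change 0.81, limma adjusted p = 0.0023). The T cell marker sum was 254 to 1155 in untreated against 848 to 1497, with 4 of 8 markers called higher, and the myeloid sum was 603 to 1418 against 1021 to 1526, with 1 of 6 tested called higher. The NK, dendritic, plasma, erythroid and immature B cell sums overlapped, with Ncr1 (NK) and Ptprc and Cd93 (immature B) called higher. Untreated replicate 8 held the highest untreated value of both sums. The part of these cells in the values of the members was not tested.

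For the pathway lists of this comparison, 7.32% of all tested genes were called higher and 15.7% in either direction. The calcium and NFAT branch, downstream of Plcg2, had 5 of 16 genes higher and 1 lower, with Itpr2 (log2 fold change 0.66), Itpr1 (0.44) and the transcription factor gene Nfatc1 (0.47) leading. The PI3 kinase and AKT branch had 5 of 16 higher and 1 lower, led by Pik3cg (0.53), the transcription factor gene Foxo1 (0.40) and Pik3ca (0.30). The diacylglycerol, RAS and NF-kappaB branch had 1 of 19 higher, Rasgrp1 (0.40), and 2 lower, among them Bcl10 (-0.48), a link to NF-kappaB. The inhibitory receptors and phosphatases, a list that is not limited to inhibitors, had 4 of 19 higher. Among them were the phosphatase genes Ptprj (0.64), Ptprc (0.41) and Inpp5d (0.38, SHIP1). Cd81 (0.57) and the adaptor gene Cd2ap (0.27) were higher and the adaptor gene Nck1 (-0.47) lower. Of the 10 T cell receptor counterparts 5 were called higher, among them Lat (1.75) and Lcp2 (1.27). Limma's adjusted p lay under 0.05 for each gene named so far in this paragraph. Of the 28 pathway genes called, 4 were still called without toxin control replicate 2 (Cd81, Itpr2, Lat and Nck1), 11 without toxin control replicate 3 and 13 without either of untreated replicates 6 and 7.

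**Figure D3:**
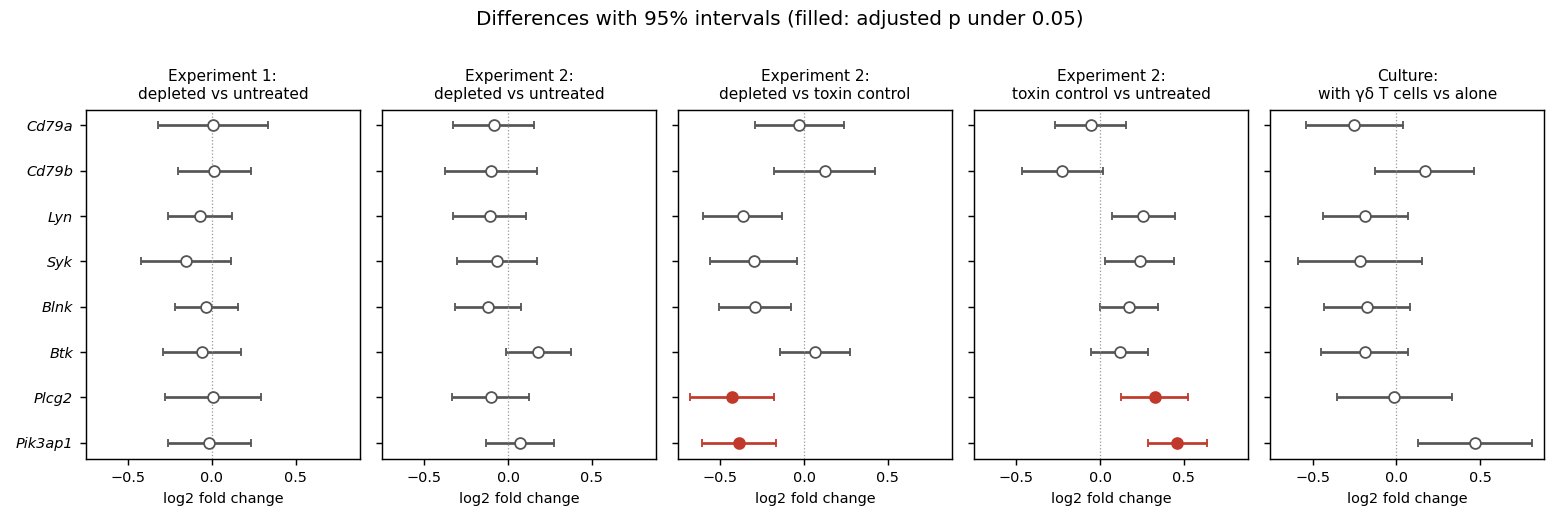
Log2 fold change of each member in the 5 comparisons, with 95% intervals from limma; filled points have an adjusted p under 0.05 over all tested genes of the table. Plcg2 and Pik3ap1 are filled in both comparisons with the toxin control, at -0.43 and -0.39 and at 0.32 and 0.46, and no point is filled elsewhere.

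In culture, no member was called different between immature B cells kept with gamma delta T cells and those kept alone. Pik3ap1 was higher and Cd79a lower in all 3 co-cultured libraries than in any library of cells kept alone, without passing the adjusted test. Of the 8 members 6 had negative log2 fold changes, and the median was -0.18 against -0.0050 over all tested genes. Limma's adjusted p was under 0.05 for 0 of 8 members and for 2.16% of the 12386 tested genes. At an unadjusted p under 0.05 it was 1 of 8, Pik3ap1, and 12.6% of tested genes, and edgeR and DESeq2 called 0 after adjustment.

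Pik3ap1 had 1395, 1566 and 1684 normalized counts in cells kept alone and 1920, 1830 and 2773 with gamma delta T cells. Co-cultured replicate 3 was far above the other two. The log2 fold change was 0.47 ± 0.16 (SE; limma, adjusted p = 0.18, 95% interval 0.13 to 0.81), and 0.28 without that library (adjusted p = 0.14).

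Cd79a had 11253, 13443 and 11010 in cells kept alone and 9566, 10763 and 9606 with gamma delta T cells. The highest co-cultured library came close to the lowest of the cells kept alone, and the log2 fold change was -0.25 ± 0.13 (SE; limma, adjusted p = 0.49). Cd79b, its partner chain, had 13411, 13839 and 14014 against 16041, 16894 and 13641, and the groups overlapped through co-cultured replicate 3. Its log2 fold change was 0.17 ± 0.14 (adjusted p = 0.69). The 2 members of 8 without overlap, Cd79a and Pik3ap1, compare with 18.4% of tested genes in either direction.

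Co-cultured replicate 3 was the highest of the 6 libraries for Syk, Plcg2 and Pik3ap1. Syk had 4173, 5010 and 4699 in cells kept alone and 3144, 3789 and 5251 in co-culture, so the third co-cultured library lay above, and the other two below, every library of cells kept alone. Without it, Syk was called lower (log2 fold change -0.42, limma adjusted p = 0.032), and it was the only member called when any single library of the culture table was left out. Plcg2 had 3639, 3881 and 3888 against 3248, 3305 and 4974, the same arrangement. Its log2 fold change was -0.01 with all libraries, -0.21 without co-cultured replicate 3 (adjusted p = 0.21) and 0.04 by edgeR and DESeq2.

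Lyn (log2 fold change -0.18), Blnk (-0.18) and Btk (-0.19) overlapped between the 2 cultures. T cell markers summed to 539 to 766 in co-culture and 501 to 553 alone, and Cd3e was at 50.9 ± 6.47 (SD, n = 3) and 46.5 ± 4.79, so the gamma delta T cells of the culture were not seen as a rise of Cd3e at this depth. Tcrg-C1 was at 0 in both groups. Of the pathway lists, the other Src and Tec family kinases had Lck higher (log2 fold change 0.71, limma adjusted p = 0.030) among 9 tested. The inhibitory receptors and phosphatases had 3 of 18 tested genes lower: the receptor genes Pirb (-0.77) and Cd5 (-0.95) and the phosphatase gene Ptpn22 (-0.51), given as log2 fold changes. Lck is also the 1 called of 9 tested T cell receptor counterparts, and the remaining 6 lists had no called gene. The calls of Lck, Cd5 and Ptpn22 were each lost when any library other than co-cultured replicate 3 was left out (limma adjusted p = 0.092 to 0.15, 0.082 to 0.20 and 0.078 to 0.25), and that of Pirb without replicate 2 (0.093) or 3 (0.083) of the cells kept alone. Of the cell markers, the plasma cell genes Xbp1 (log2 fold change 1.07) and Sdc1 (-1.78) went opposite ways and the immature B cell gene Cd24a was lower (-0.79), each with a limma adjusted p under 0.05, and their part in the members' values was not tested.

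A ratio of 2 members within a library does not depend on the scaling, and 2 such ratios were examined after the values were seen, as a description. The ratio of Cd79b to Cd79a was 1.19, 1.03 and 1.27 in cells kept alone and 1.68, 1.57 and 1.42 in co-culture, with no overlap. In the spleen experiments it overlapped between all groups compared, from 0.849 to 1.20 in experiment 1 and from 0.912 to 1.42 in experiment 2. The ratio of Pik3ap1 to Plcg2 was 0.383, 0.404 and 0.433 in cells kept alone and 0.591, 0.554 and 0.557 in co-culture, again with no overlap. In co-cultured replicate 3, where both genes were high, this ratio was like that of the other 2 co-cultured libraries. For both ratios in culture a two-sided exact permutation test gave p = 0.1, the smallest that 3 libraries against 3 allow, and an adjusted p of 0.25 over the 10 comparisons made (2 ratios in 5 comparisons), so neither passed. In experiment 2 it was 0.592 to 0.643 in untreated, 0.656 and 0.743 in depleted and 0.659 to 0.698 in toxin control libraries. All 5 libraries of toxin-treated mice of that experiment lay above the 5 untreated ones, but in experiment 1 the ratio was 0.638 to 0.708 in depleted and 0.658 to 0.759 in untreated libraries, which overlapped. The adjusted p was 0.25 for both comparisons with untreated cells in experiment 2 (exact permutation p = 0.0952 for depleted and 0.0357 for toxin control libraries, the smallest these numbers of libraries allow).

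**Figure D4:**
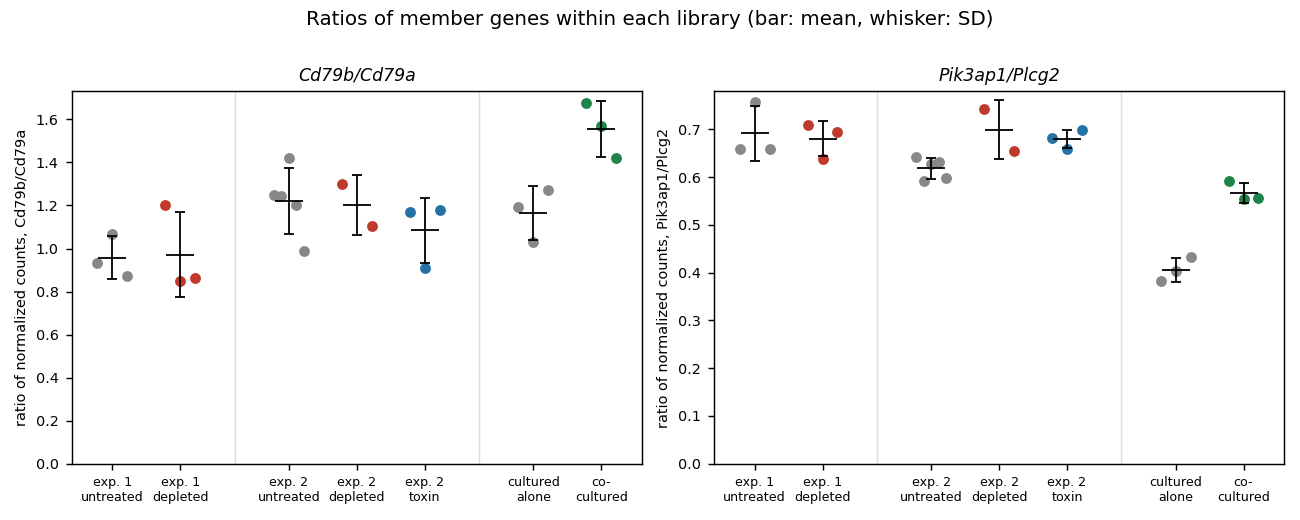
Ratio of the normalized counts of Cd79b to Cd79a (left) and of Pik3ap1 to Plcg2 (right) within each of the 22 libraries; points are libraries, bars are means, whiskers are SD, and "exp. 2 toxin" is the toxin control. In culture the co-cultured libraries lie at 1.42 to 1.68 and 0.554 to 0.591, above the 1.03 to 1.27 and 0.383 to 0.433 of cells kept alone.

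Within groups, Syk, Plcg2 and Pik3ap1 varied together. Over the 22 libraries, as deviations of log2 values from the group mean, Pearson's r was 0.91 between Plcg2 and Pik3ap1, 0.87 between Syk and Pik3ap1 and 0.84 between Syk and Plcg2. Cd79b went against most other members, with r of -0.508 with Blnk, -0.496 with Plcg2 and -0.485 with Lyn, and r between Cd79a and Cd79b was 0.11. Btk was only loosely tied to any other, the highest r being 0.46 with Cd79a. These values share libraries, depth and scaling, some come from groups of 2 or 3 libraries, and co-cultured replicate 3 is at the upper end for the first 3 genes, so they are a description.

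**Figure D5:**
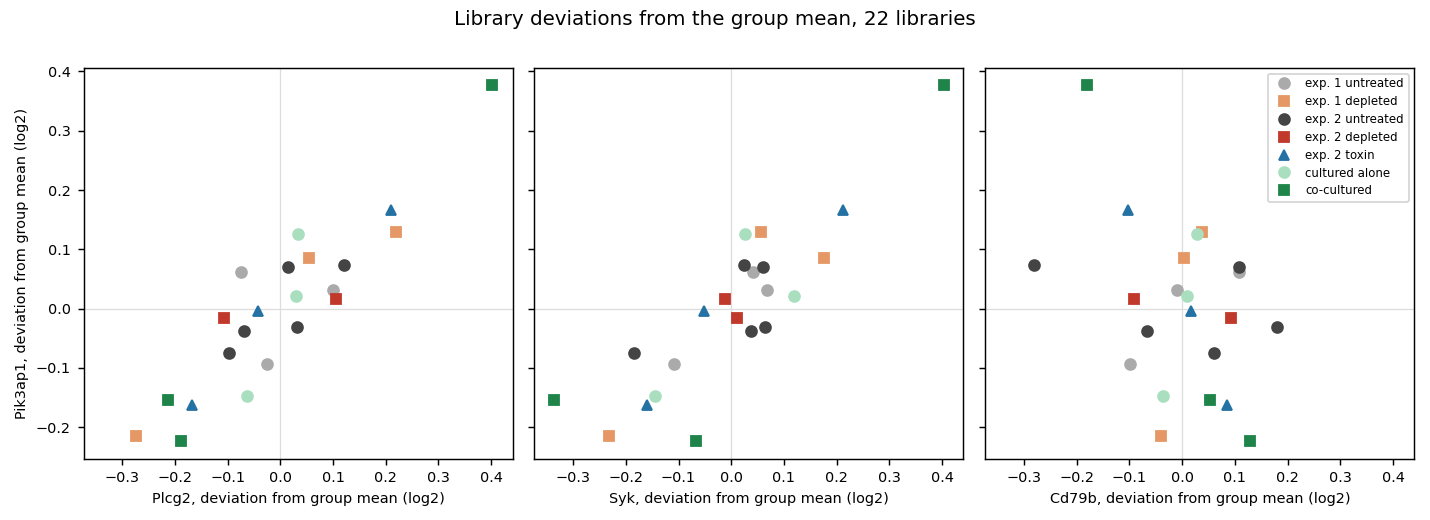
Deviation of Pik3ap1 from its group mean (log2, vertical axis) against that of Plcg2, Syk and Cd79b (log2, horizontal axes) in the 22 libraries, 1 point per library coloured by group. The points rise together for Plcg2 (r = 0.91) and Syk (r = 0.87) and fall for Cd79b (r = -0.38), with co-cultured replicate 3 at the top of each panel.

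Among 8469 genes with a mean of at least 50 in every table, the genes whose pattern was most like that of each member were found by Pearson's r of log2 values centred on each table, over all 22 libraries. For Plcg2 they were Cyfip2 (r = 0.95) and Cux1 (0.94), for Pik3ap1 Ddx21 (0.95) and Fkbp15 (0.94), and for Syk Tnip1 (0.93) and Jakmip1 (0.91). Lyn was most like Itgb2 (0.93) and Ankfy1 (0.92), Blnk most like Cbfa2t3 (0.865) and Sema4b (0.86), and Btk most like Zfp740 (0.91) and Rbl2 (0.81). Cd79a was most like Chst12 (0.87) and Fli1 (0.865), and Cd79b most like Atp6v1g1 (0.86) and Sra1 (0.85). These genes were chosen for their likeness among many, and the libraries share depth and scaling.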

How the data were processed

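Sorted splenic immature B cells of mice gave 22 total RNA libraries. The labels' protocols name the RNeasy Plus Micro kit for the RNA and a stranded SMART-Seq kit for the libraries. The submitters' processing notes list bcl2fastq, STAR 2.5.2b and mm10. How reads were counted and scaled, and whether by strand, is not given in the sources used here. All deposited values are a signal, gene counts that the authors scaled per library (normalized counts, per the labels), in 3 separately normalized tables. Divided by the value of a single read, 100% of the values of each library came out whole (tolerance 0.01), which gave library sizes and the reads for edgeR and DESeq2. Of the gene identifiers, 98.8% to 98.9% were found in GENCODE M21.

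Groups were compared within a table with limma 3.58.1 in R 4.3.3 (linear fit and eBayes with a trend), run on log2(value + 1), which understates changes at low values, for genes with a table mean of at least 10. Benjamini-Hochberg adjustment ran over all tested genes and calls needed an adjusted p under 0.05. The 3 groups of experiment 2 were fitted together. The fit was tried on simulated data with changes larger than those of the members, which does not check differences of the members' size. Alternatives were a pseudocount of 5, no filter, quantile normalization, edgeR 4.0.16 (quasi-likelihood), DESeq2 1.42.0, only the groups compared, a replicate block and leaving out each library.

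The members and lists were chosen with earlier results of these data known. Named were all 8 members, up to 3 called genes with the smallest p per pathway list and comparison, 7 cell markers in every table, and the 2 genes most like each member. Trdc, Iglc1 and Iglc3 are not analysed here. Some genes that this rule names are not reported here. The lowest read count of a member in any library was 657, a counting error of 3.90%, so the spread between libraries sets the precision.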

Additional observations from a re-analysis of the deposited data

Results flagged for a closer look

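In groups of 5 libraries, 4 values of untreated cells of experiment 2 lay far from the others of their group, out of 18 sets of values looked at, where chance marks about 1 set in 20. Syk was at 11340 normalized counts in untreated replicate 6, and at 13100 to 13480 in the other 4 libraries. The summed T cell markers were at 1155 in untreated replicate 8 against 254 to 462 in the others, and the summed myeloid markers of the same library were at 1418 against 603 to 815. The summed dendritic cell markers were at 543.6 in untreated replicate 5 against 283 to 335.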

How the results depend on the processing

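Apart from edgeR and DESeq2, the alternatives were limma fits, with 1 setting changed at a time except for the block in experiment 2, and the cause of each change named here was not tested. The member counts of experiment 1 and of depleted against untreated cells in experiment 2 were 0 under all alternatives run. Against the toxin control (2 members called) the count was 0 with no filter or with only the 2 groups, 4 by quantile normalization or DESeq2, and 0 to 3 with 1 library left out. For the toxin control against untreated cells (2) it was 1 with no filter, 4 by quantile normalization and 1 to 4 with 1 library left out. In culture (0) it was 0 to 1 with 1 library left out.

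Genes called over the table in experiment 1 (0) were 2 with no filter, 31 by DESeq2 and 0 to 1097 with 1 library left out. Depleted against untreated in experiment 2 (40) gave 137 by DESeq2, 5 with only the 2 groups, and 0 to 580 with 1 library left out. Depleted against toxin control (1212) gave 725 with no filter, 442 with only the 2 groups and 43 to 2716 with 1 library left out. Toxin control against untreated (2093) gave 196 to 2994 and culture (267) gave 103 to 664 with 1 library left out.

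By the rule that every same-numbered pair must deviate together with a correlation over 0.1, the numbers were not taken as pairs. The correlations of deviations were -0.0373 to 0.0457 in experiment 1, -0.105 and -0.0697 in experiment 2, and in culture 0.20, -0.037 and 0.23 for numbers 1, 2 and 3, where 1 and 3 were above all pairs of unlike number (-0.258 to 0.13). With the replicate number as a block, 0 members were called in experiment 1, in depleted against untreated cells of experiment 2 and in culture, and 0, 153 and 448 genes. In experiment 2 the block was fitted to the 2 groups only, where the fit without it called 5 genes.

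Under the alternatives run, signs turned only for members that were not called. Quantile normalization gave log2 fold changes of -0.0775 for Cd79a and -0.0549 for Cd79b in experiment 1, -0.28 for Cd79b against the toxin control, and 0.25 for Cd79a and 0.0863 for Cd79b in the toxin control against untreated cells. In culture, Plcg2 was at 0.0387 by edgeR and 0.0376 by DESeq2. With 1 library left out, experiment 1 gave -0.10 to 0.19 for Cd79a, -0.0352 to 0.0676 for Cd79b, -0.11 to 0.0263 for Btk, -0.10 to 0.14 for Plcg2 and -0.0809 to 0.0906 for Pik3ap1. Depleted against untreated cells of experiment 2 gave -0.27 to 0.0525 for Lyn and -0.21 to 0.0019 for Plcg2, Cd79a against the toxin control -0.0836 to 0.0415, and Plcg2 in culture -0.21 to 0.0931. With 2 depleted libraries in experiment 2, leaving out 1 leaves a single library assumed to vary like the other groups.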
